A study of Mus musculus with 8 samples.

Results

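The genes described here are 10 that encode adhesion molecules and identity markers of endothelial cells, the cells that line blood vessels. They were taken by symbol from the 33105 genes of the count table. Of these 10, 4 are adhesion genes that endothelium can switch on (Sele, Selp, Vcam1 and Icam1) and 6 are markers that resting endothelium carries all the time (Icam2, Pecam1, Cdh5, Vwf, Emcn and Cldn5). All 10 passed the filter on low counts, which left 16603 genes to test. Messenger RNA from hearts of C57BL/6J mice was sequenced as 4 Sham libraries and 4 libraries from mice with surgically induced mitral regurgitation (MR), in which the mitral valve leaks and the heart pumps an extra volume. The study set out to find pathways and characteristic genes of the hypertrophy that follows. The sources used here do not give the age, the chamber taken or the time after surgery.

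Leukocytes leave the blood in steps. Selectins on the endothelium (E-selectin from Sele, P-selectin from Selp) catch sugar-bearing ligands on passing cells and let them roll, and VCAM-1 and ICAM-1 then hold them through integrins. Cytokines acting through the transcription factor NF-kB induce Sele, Vcam1 and Icam1, and P-selectin is also stored ready-made in Weibel-Palade bodies, the granules that von Willebrand factor (Vwf) builds. The identity genes hold the vessel wall together: Cdh5 encodes VE-cadherin of the adherens junction, Cldn5 a claudin of the tight junction, Pecam1 and Icam2 adhesion proteins at cell borders, and Emcn the sialomucin endomucin.

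Of the 10 genes, Sele alone passed the test between groups (edgeR quasi-likelihood test, false discovery rate 0.05 over all genes), and it rose 1.81-fold in MR. The other inducible genes did not pass: Vcam1 and Selp were at 0.985 and 1.04 times their Sham level, and Icam1 at 0.852 times. None of the 6 constitutive genes passed, with fold values from 0.90 for Vwf to 1.23 for Cldn5. Of 10 members 1 was called, where 0.458% of all genes tested were. Members were chosen with the rise of Sele in these data known, so that count cannot be read against that share. On the same libraries, DESeq2 and limma-voom with quality weights also called Sele and no other member, and called 3.76% and 2.75% of all genes. In whole tissue, a change in the number of endothelial cells and a change in transcript per cell cannot be told apart.

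Depth and the state of the libraries bear on these values as follows. Total counts were 42291511 to 58658094 per library, so that 1 count was worth 0.0167 to 0.0237 CPM, the unit of depth-scaled counts used here. A count of 0 would allow up to 0.0502 to 0.0711 CPM, counting error only and with each count taken as independent. If both ends of a fragment were counted, that bound would be higher, and the counts given below would stand for fewer fragments. In a principal component analysis Sham replicate 3 lay on the MR side of the first component (score 7.2, where the rest of Sham scored −32.4 to −15.7 and MR 12.6 to 22.8), and Sham replicate 1 stood apart on the second (31.2, where the rest of Sham scored −19.3 to −6.3). Where a gene is given with a test and its call changes without Sham replicate 3, the value without that library stands beside it. That library was singled out for its place on the first component. Leaving it out removes the Sham library nearest to MR, and 5.28% of all genes were then called, against 0.458% with all libraries. Genes given this way that did not pass with all libraries passed in no other fit that left out a library. Such a pass is therefore no added support for a gene. The labelled tissue matched its markers, since the 11 cardiomyocyte genes listed summed to 66000 to 82500 CPM in every library.

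Sele and Selp lie close together in the selectin cluster on chromosome 1, and the stretch of DNA before each start is shown here with that of Icam1 because these are inducible genes that differed in their fold values. The windows are the 250 bases before the RefSeq start (build GRCm38.p6, plus strand in each case, written 5′ to 3′), at chr1:164047984-164048233 for Sele, chr1:164115014-164115263 for Selp and chr9:21015690-21015939 for Icam1. Capitals mark matches to GGGNNNNNCC on either strand, a loose form of the site that NF-kB binds. Stretches that depart from these letters are not marked or counted, although NF-kB may bind some of them. In the Icam1 window, tggaaattcc differs from the pattern in its first letter only. The capitals are therefore not a full list of possible sites.
Sele: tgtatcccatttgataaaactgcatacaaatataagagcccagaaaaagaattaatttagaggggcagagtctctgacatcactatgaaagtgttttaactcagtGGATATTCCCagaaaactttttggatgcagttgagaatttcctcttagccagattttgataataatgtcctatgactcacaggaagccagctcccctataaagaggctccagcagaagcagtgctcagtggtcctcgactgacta
Selp: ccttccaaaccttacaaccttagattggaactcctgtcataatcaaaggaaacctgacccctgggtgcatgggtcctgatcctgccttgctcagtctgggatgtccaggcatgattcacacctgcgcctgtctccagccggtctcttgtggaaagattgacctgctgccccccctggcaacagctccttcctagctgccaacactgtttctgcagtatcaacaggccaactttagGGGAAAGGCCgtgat
Icam1: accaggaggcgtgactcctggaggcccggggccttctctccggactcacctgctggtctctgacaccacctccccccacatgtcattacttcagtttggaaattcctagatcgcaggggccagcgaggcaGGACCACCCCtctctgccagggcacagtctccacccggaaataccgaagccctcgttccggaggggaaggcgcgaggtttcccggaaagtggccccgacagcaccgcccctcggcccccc
Each of these windows held 1 match, read on the minus strand in Sele (GGATATTCCC, bases 145 to 136 before the start) and Icam1 (GGACCACCCC, bases 120 to 111) and on the plus strand in Selp (GGGAAAGGCC, bases 15 to 6). Such letters were found in 45.8% of 32841 promoter windows of that length. The AP-1 motif TGANTCA, which reads the same on both strands, occurred in Sele (bases 73 to 67 before the start) and in Selp (bases 139 to 133), against 6.75% of windows. Only Sele among the 5 members with a RefSeq window held TATAAA, the TATA box (bases 49 to 44), against 12.4% of windows searched on both strands. Of the constitutive genes with a window, Cldn5 held overlapping GGGNNNNNCC matches and Emcn held none. These are matches of letters and are not shown to be bound in these hearts. Vcam1, Icam2, Pecam1, Cdh5 and Vwf were not matched to a window.

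Sele (ENSMUSG00000026582, protein-coding, chromosome 1, 164048234 to 164057677, GRCm38) encodes E-selectin, which endothelium makes when it is activated. Sham replicates 1 to 4 held 1.11, 1.09, 1.58 and 1.30 CPM, and MR replicates 1 to 4 held 2.49, 2.13, 2.23 and 2.34 CPM. These rest on 46 to 70 counts in a Sham library and 96 to 140 in an MR library. Every MR value lay above every Sham value, and the Sham library nearest to MR was replicate 3, the one that also lay nearest on the first component. The groups averaged 1.27 ± 0.225 and 2.30 ± 0.155 CPM (SD, n = 4). Their log2 fold change was 0.85 (SE 0.17, 95% interval 0.49 to 1.22, adjusted p = 0.0483 by the edgeR quasi-likelihood test).

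The direction of Sele held in all 8 fits that left out a library, with log2 fold changes of 0.79 to 0.97, but its call did not. Among these it passed only without Sham replicate 3 (adjusted p = 0.00716), a setting in which 5.28% of all genes were called, and the other 7 fits gave adjusted p-values of 0.0658 without Sham replicate 1 to 0.156 without Sham replicate 4. Each such fit has 3 libraries in a group. The number of genes called over the whole table ran from 3 without Sham replicate 2 to 887 without Sham replicate 3. Why the calls of Sele were lost was not tested.

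**Figure D1:**
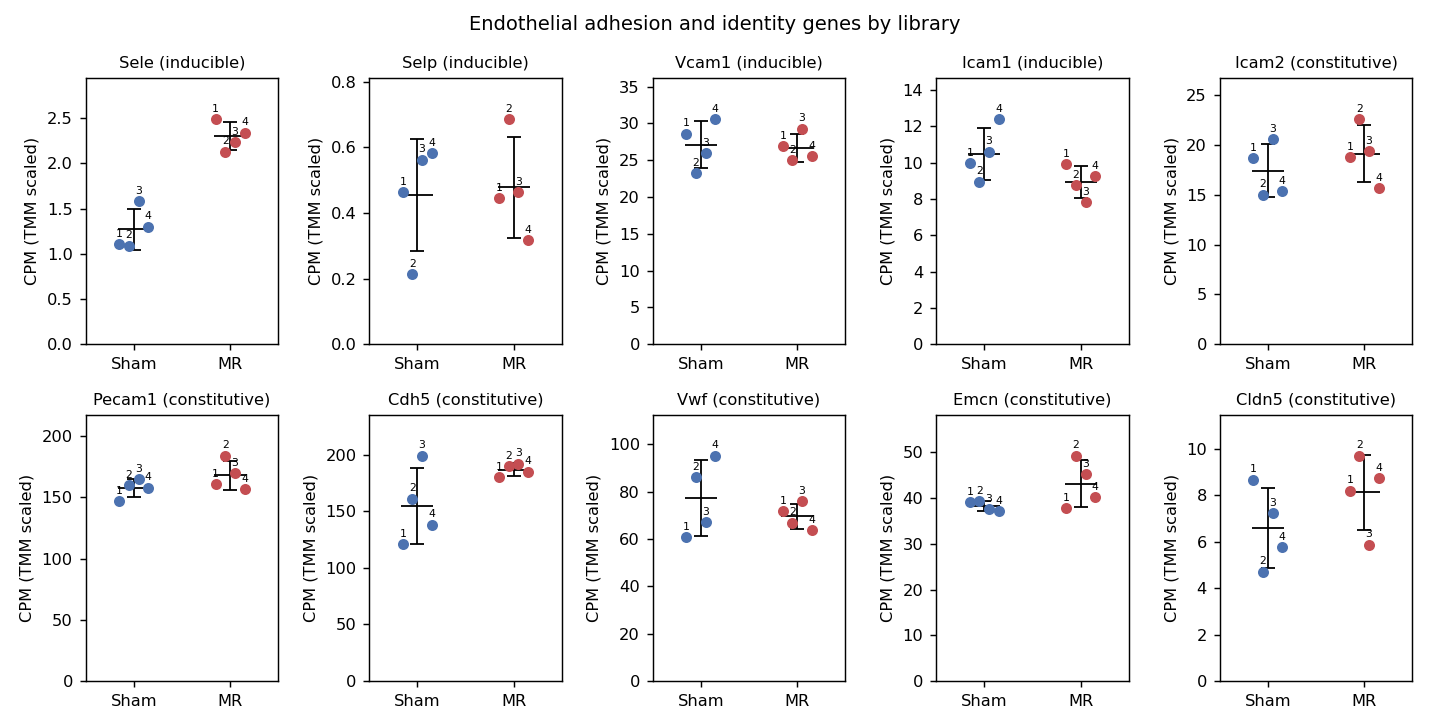
Level of each of the 10 genes in CPM (vertical axis, from 0) in Sham and MR libraries; points are libraries numbered by replicate, the dash is the mean and the bar is the SD over 4 libraries. Sele is the gene whose MR values, 2.13 to 2.49 CPM, all lie above its Sham values, 1.09 to 1.58 CPM, while the ranges of the other 9 overlap.

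Selp (ENSMUSG00000026580, protein-coding, chromosome 1, 164115264 to 164150026) was the scarcest member. Sham replicates 1 to 4 held 0.464, 0.213, 0.563 and 0.583 CPM and the MR libraries 0.445, 0.687, 0.465 and 0.318 CPM, from 9 to 31 counts a library. The groups overlapped fully, with the highest and the second lowest values both in MR. The log2 fold change was 0.05 (edgeR adjusted p = 0.969). Its 95% interval of −0.72 to 0.82, or 0.609 to 1.76 times the Sham level, leaves out neither a fall nor a rise within that range. Its sign turned without Sham replicate 2 (−0.18), without MR replicate 2 (−0.17) and with the scaling to the constitutive genes (−0.09).

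Vcam1 (ENSMUSG00000027962, protein-coding, chromosome 3, 116109949 to 116129688) encodes the ligand of the leukocyte integrin VLA-4. It was measured far more precisely than the selectins, at 28.6, 23.2, 26 and 30.6 CPM in Sham and 26.9, 25, 29.3 and 25.6 CPM in MR. All MR values fell within the Sham range. Its log2 fold change was −0.02 (SE 0.09, adjusted p = 0.942), and the 95% interval of −0.21 to 0.17 leaves out a change as large as that of Sele.

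Icam1 (ENSMUSG00000037405, protein-coding, chromosome 9, 21015985 to 21028817) encodes the ligand of the beta-2 integrins of leukocytes. It was at 9.98, 8.95, 10.6 and 12.4 CPM in Sham and at 9.92, 8.75, 7.81 and 9.24 CPM in MR. The 2 lowest values were in MR and the 2 highest in Sham, but the ranges overlapped. The log2 fold change was −0.23 (SE 0.11, 95% interval −0.47 to 0.01, adjusted p = 0.356), opposite in sign to that of Sele. Antisense genes annotated over exons of Selp, Vcam1 and Icam1 held at most 3 counts each over all 8 libraries, so an overlap with them adds little to these values.

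Among the constitutive genes, the junction cadherin Cdh5 (ENSMUSG00000031871, chromosome 8, 104101625 to 104144511) had the lowest unadjusted p. It ran at 121, 161, 199 and 138 CPM in Sham and at 180, 190, 192 and 185 CPM in MR. The MR libraries were tight (SD 5.59 CPM) and the Sham libraries spread (SD 34.1 CPM), with Sham replicate 3 above every MR library and the other 3 below. The log2 fold change was 0.27 (SE 0.12, adjusted p = 0.318). Without Sham replicate 3 it was 0.42 and passed (adjusted p = 0.0203), and without Sham replicate 1 it was 0.16 (adjusted p = 0.483).

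Pecam1 (ENSMUSG00000020717, chromosome 11, 106654217 to 106750628) encodes CD31, the most used endothelial marker. It was steady at 147, 160, 165 and 158 CPM in Sham and 161, 184, 170 and 157 CPM in MR. The groups overlapped, and the log2 fold change of 0.09 had a 95% interval of −0.06 to 0.25 (adjusted p = 0.60). Icam2 (ENSMUSG00000001029, chromosome 11, 106377656 to 106388075), whose protein is present on resting endothelium unlike that of Icam1, stood at 18.7, 15, 20.6 and 15.4 CPM in Sham and 18.8, 22.6, 19.4 and 15.7 CPM in MR. Its highest value was in MR and its lowest in Sham, with wide overlap (log2 fold change 0.13, SE 0.12, adjusted p = 0.662).

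Emcn (ENSMUSG00000054690, chromosome 3, 137341067 to 137432185) encodes a mucin that hinders leukocyte contact. It was nearly constant in Sham, at 39.1, 39.3, 37.6 and 37.1 CPM, and more spread in MR, at 37.8, 49.3, 45.2 and 40.3 CPM. In 3 of 4 MR libraries it exceeded every Sham value (log2 fold change 0.17, SE 0.08, adjusted p = 0.343). Cldn5 (ENSMUSG00000041378, chromosome 16, 18776847 to 18778262) was at 8.68, 4.71, 7.23 and 5.77 CPM in Sham and 8.20, 9.71, 5.88 and 8.73 CPM in MR. Its groups overlapped and its spread was wide, and the log2 fold change was 0.30 (SE 0.19, adjusted p = 0.484).

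Vwf (ENSMUSG00000001930, chromosome 6, 125546774 to 125686679) was the constitutive gene whose fold value lay below 1. It was at 60.8, 86.3, 67.1 and 95.2 CPM in Sham and at 71.9, 66.9, 75.9 and 63.8 CPM in MR. The MR values sat inside the Sham range, which was set by high values in Sham replicates 2 and 4 and low ones in 1 and 3. The log2 fold change was −0.15 (SE 0.12, adjusted p = 0.615). Without Sham replicates 1 and 3 together, a choice made after seeing the data, it was −0.39 and passed (adjusted p = 0.00988), as did 5.82% of all genes.

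**Figure D2:**
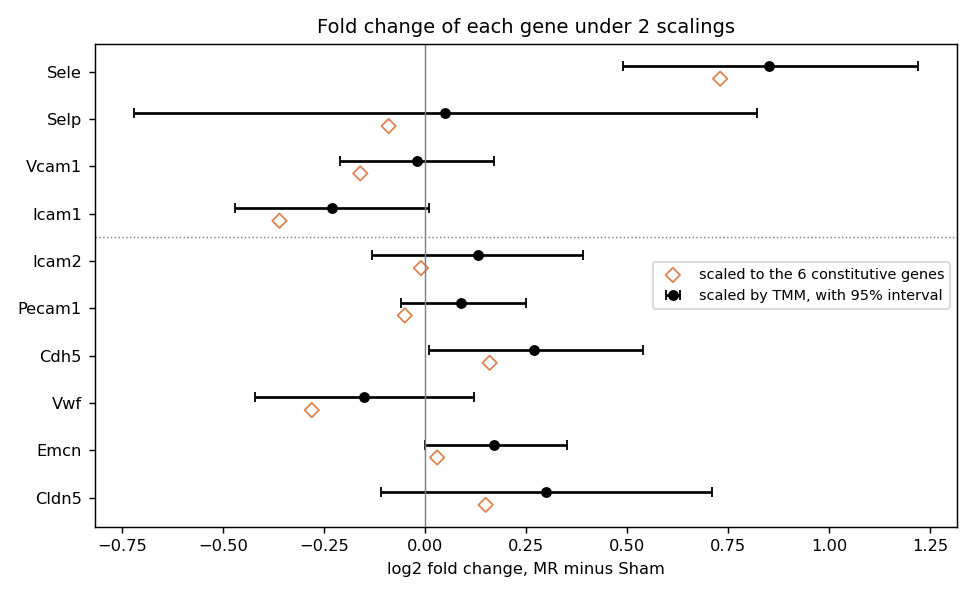
Log2 fold change of MR over Sham for each gene (horizontal axis), with black points and 95% intervals from the edgeR fit scaled by TMM and open diamonds from a fit scaled to the summed counts of the 6 constitutive genes; the dotted line parts inducible genes (top) from constitutive ones. Sele lies at 0.85 and 0.73 under these scalings, and no other gene lies above 0.30.

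The inducible genes were then set against the constitutive ones within each library. The mean log2 CPM of the 4 inducible genes minus that of the 6 constitutive genes came to −3.60, −3.94, −3.57 and −3.37 for the Sham replicates in order and to −3.49, −3.65, −3.58 and −3.62 for those of MR. All MR values lay inside the Sham range, and the group means were −3.62 ± 0.24 and −3.59 ± 0.07 (SD, n = 4), a difference of 0.03. In Sham replicate 2, the lowest library of the score, Selp stood −7.39 log2 units from the constitutive mean, on 9 counts. In Sham replicates 1, 3 and 4 Selp stood at −6.43, −6.31 and −6.12. No test was made of this score. Without Sele, the difference between groups was −0.19.

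Taken singly, the inducible genes went different ways relative to the constitutive mean. Sele stood −5.24, −5.24, −4.90 and −5.03 log2 units from it in Sham and −4.24, −4.64, −4.41 and −4.29 in MR, a shift of 0.70 with no overlap. Icam1 stood −2.12, −2.25, −2.18 and −1.81 from it in Sham and −2.27, −2.63, −2.63 and −2.33 in MR, a shift of −0.37 in which every MR value was below every Sham value. In CPM the ranges of Icam1 overlapped. The constitutive mean was itself 0.14 log2 units higher in MR, so an unchanged gene shifts down by that much here. The share of all genes with groups apart on this scale was not computed. Shifts of Vcam1 (−0.16) and Selp (−0.04) came with overlapping groups. When the whole table was refitted with libraries scaled to the summed counts of the constitutive genes, Sele had a log2 fold change of 0.73 (SE 0.20) and did not pass (edgeR adjusted p = 0.0645), nor did Icam1 at −0.36 (adjusted p = 0.178). In that fit 1.01% of genes were called, and the median gene stood at −0.13, because the summed constitutive counts were higher in MR (471 to 523 CPM against 395 to 497 in Sham). Pecam1 and Icam2, above 0 under TMM, were at −0.05 and −0.01 there.

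**Figure D3:**
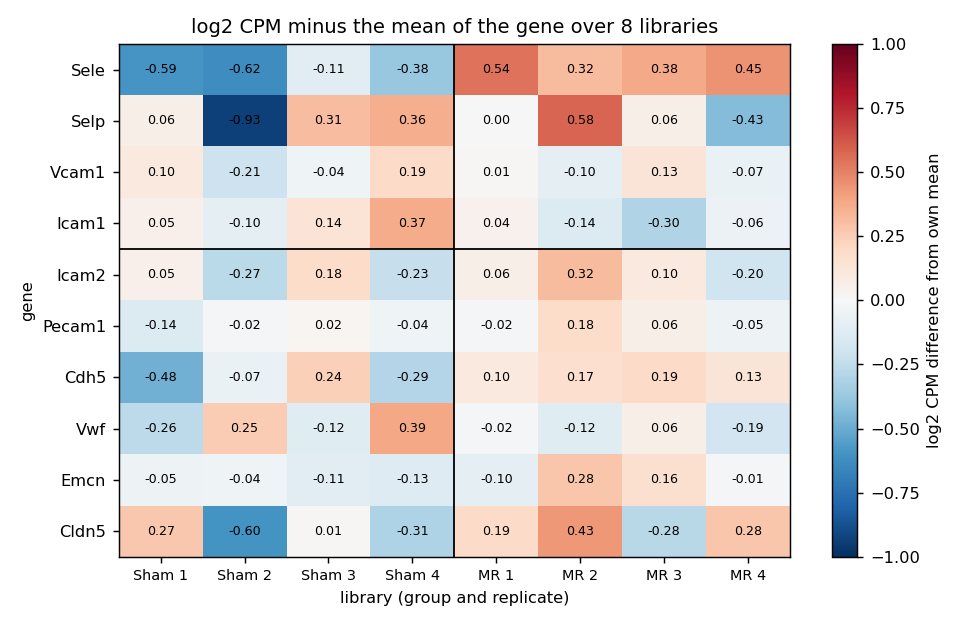
Log2 CPM of each gene in each library minus the mean of that gene over the 8 libraries (colour and printed value; rows are genes, with inducible ones above the black line, and columns are libraries, with Sham on the left). Sele is below its mean in all 4 Sham libraries and above it in all 4 MR libraries, and MR replicate 2 holds the highest value of 5 genes (Selp, Icam2, Pecam1, Emcn and Cldn5).

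Libraries did not move all endothelial genes alike. MR replicate 2 held the highest value of 4 of the 6 constitutive genes (Icam2, Pecam1, Emcn and Cldn5). Sham replicate 1 was lowest for Pecam1, Cdh5 and Vwf, while Cldn5 there stood 0.27 above its own mean. Sham replicate 2 was lowest for 5 genes (Sele, Selp, Vcam1, Icam2 and Cldn5) while Vwf was 0.25 above its mean. The profiles closest to each other among the members were those of Pecam1 and Emcn, whose centred log2 CPM differed by a root mean square of 0.087.

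Per kilobase of annotated exon, the order of levels in Sham ran from Cdh5 (36.8 CPM per kb) and Pecam1 (25.3) through Icam2 (9.16), Emcn (7.08), Vwf (4.82) and Cldn5 (4.66) to Vcam1 (3.06), Icam1 (2.41), Sele (0.436) and Selp (0.103). All 6 constitutive genes stood above all 4 inducible ones on this scale of level. Neighbours whose Sham libraries overlapped were Vwf with Cldn5, Cldn5 with Vcam1 and Vcam1 with Icam1, and the other neighbours did not overlap. In MR the order was the same except that Cldn5 (5.74) came before Vwf (4.33), and Sele, at 0.789, remained between Icam1 and Selp.

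Among the other genes tested, the profiles nearest to that of Sele over the 8 libraries were those of Naip6, Rnf152, Ankrd23, Tmem154 and Unc5b. Nearness is the root mean square difference of log2 CPM after each gene is centred on its own mean, and it ran from 0.097 to 0.181 for these against a median of 0.47 over 12125 genes averaging at least 1 CPM. Since Sele separates the groups, a gene chosen for a like profile tends to do so by that choice, and the log2 fold changes of these 5 (0.53 for Unc5b to 0.81 for Naip6) are a description with no test. Naip6 has close relatives in its gene family, so its value is uncertain where reads match them. The genes nearest to Pecam1 were Trim2, Foxo1, Zyx, Grk6 and Esam (0.023 to 0.040, against a median of 0.164), of which Esam encodes another endothelial junction protein.

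Ligands and integrins that pair with adhesion molecules showed no call in edgeR. Not all of them are particular to leukocytes. In Sham, Itgb1, Podxl and Cd34 averaged 482, 201 and 107 CPM, against 16.3 CPM for the leukocyte marker Ptprc. In whole heart this list therefore does not read leukocytes alone. Of 15 ligands and integrins tested, 0 passed, with a median log2 fold change of 0.01 beside 0.00 over all genes tested, and 2 had an unadjusted p under 0.05, as 15.1% of all genes tested did. Selplg, the main ligand of P-selectin, averaged 4.01 ± 0.401 CPM in Sham against 3.60 ± 0.422 CPM in MR (SD, n = 4), and did not pass at a log2 fold change of −0.16 (adjusted p = 0.623). Itga9, an integrin chain whose heterodimer can bind VCAM-1, had the lowest p, at 67.2 ± 15.9 and 101 ± 7.52 CPM with all MR values above Sham (log2 fold change 0.59, adjusted p = 0.0755, and 0.000741 without Sham replicate 3). DESeq2 and limma-voom called Itga9 and no other gene of this list (3.76% and 2.75% over all genes). Cd34 was at 0.33 (adjusted p = 0.179), and at 0.41 without Sham replicate 3 (0.0491). Of 9 tested enzymes that build selectin ligands 0 passed and 3 had an unadjusted p under 0.05. The fucosyltransferase Fut4 was at 0.82 and the sulphotransferases Chst4 and Chst2 at 0.94 and 0.51 (adjusted p 0.151, 0.207 and 0.272), all averaging under 2 CPM in both groups, and the other tools called 0 of these enzymes.

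Of 29 tested genes for cytokines, receptors and NF-kB signalling that induce adhesion genes, 0 passed, with a median log2 fold change of 0.05. Of these, 3 had an unadjusted p under 0.05, where 15.1% of all genes tested did. Nfkbia, the inhibitor that NF-kB itself induces, was at 25.3, 25.9, 27.4 and 26.5 CPM in Sham and 21.6, 24.3, 24.1 and 22.2 CPM in MR. All its MR values were below Sham (log2 fold change −0.19, adjusted p = 0.214). Tnf and Il1b, cytokines that induce Sele, were scarce, at 0.348 ± 0.151 and 0.460 ± 0.265 CPM for Tnf and 0.419 ± 0.263 and 0.810 ± 0.331 CPM for Il1b in Sham and MR (SD, n = 4; adjusted p 0.741 and 0.321). Il4ra, a receptor chain for interleukins that induce Vcam1, was at −0.27 (adjusted p = 0.189). DESeq2 and limma-voom called 0 genes of this list as well. Il1a, Il6 and Lta were too low to be tested.

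Genes of the storage granules had 0 of 12 called and 5 with an unadjusted p under 0.05 (15.1% of all genes tested did), with a median of 0.11. Angpt2, which encodes a Tie2 ligand kept in the same granules as Vwf and P-selectin, was at 2.95, 1.92, 3.36 and 2.12 CPM in Sham and 4.43, 4.99, 3.97 and 4.49 CPM in MR. Its MR values all lay above Sham, as those of Sele did, the log2 fold change was 0.79 (SE 0.17, adjusted p = 0.0641), and it passed without Sham replicate 3 (0.94, adjusted p = 0.00618). DESeq2 called Angpt2 and Igfbp7, and limma-voom called these and Plat (3.76% and 2.75% over all genes). Igfbp7 was at 0.47 (adjusted p = 0.135) and Plat, the tissue plasminogen activator, at 0.31 (adjusted p = 0.124), and both passed without Sham replicate 3 (0.61 and 0.35, adjusted p 0.00855 and 0.0448). Junction partners had 0 of 17 called, 4 with an unadjusted p under 0.05 and a median of 0.13. Afdn, an adaptor of junctions, was at 0.35 (adjusted p = 0.092) and Jup, plakoglobin, at 0.19 (adjusted p = 0.264), and the other tools called Afdn alone. Without Sham replicate 3 Afdn passed at 0.44 (adjusted p = 0.00711).

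The wider endothelial identity genes had no call in edgeR, and 2 (Cd93 and Myct1) in DESeq2 and in limma-voom (3.76% and 2.75% over all genes). Of 37 tested, 0 passed, 11 had an unadjusted p under 0.05 (15.1% of all genes tested did), 25 had positive and 12 negative log2 fold changes (8370 and 8233 over all genes), and the median was 0.12, where the 6 constitutive members had a median of 0.15. Cd93 and Myct1 had the lowest p-values (0.55 and 0.47, adjusted p 0.0739 and 0.128), and Sox17 was at −0.36 (adjusted p = 0.132). Without Sham replicate 3, where 5.28% of all genes were called, all of them passed, at 0.69, 0.59 and −0.44 (adjusted p 0.00205, 0.0158 and 0.0265). Over the fits that left out a library, their highest edgeR adjusted p-values were 0.222, 0.333 and 0.371. The receptors Tek and Kdr were at 0.00 and 0.23 (adjusted p 0.99 and 0.299). Of 11 genes that respond to blood flow, Klf4, a transcription factor that restrains endothelial adhesion genes, fell and the other 10 did not pass in edgeR. Over all genes tested, edgeR called 0.458%. Klf4 averaged 31.4 ± 2.89 CPM in Sham against 23.7 ± 1.49 CPM in MR (SD, n = 4), with all MR values below Sham at −0.41 on the log2 scale (SE 0.08, adjusted p = 0.0474). Of the 8 fits that left out a library it passed in 2, those without Sham replicate 1 and without Sham replicate 3 (highest adjusted p 0.166). It did not pass when libraries were scaled by their totals alone (−0.37, adjusted p = 0.0672) or when genes needed 1 CPM in 4 libraries (adjusted p = 0.0512). DESeq2 and limma-voom called Klf4 and, in the other direction, Heg1, which encodes a transmembrane protein of endothelium. Heg1 was at 0.36 with all MR values above Sham (adjusted p = 0.0799 in edgeR), and at 0.42 without Sham replicate 3 (adjusted p = 0.017). Klf2, a relative of Klf4, was at −0.14 (adjusted p = 0.596), and Nos3, the endothelial nitric oxide synthase, at 0.12 (adjusted p = 0.55).

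By vascular bed, 1 of 13 arterial genes rose and 0 fell in edgeR, which called 0.458% of all genes tested. Of these 13, 5 had an unadjusted p under 0.05, where 15.1% of all genes tested did. The gene that rose was Unc5b, a netrin receptor, which averaged 19.2 ± 2.62 CPM in Sham against 27.9 ± 1.87 CPM in MR (SD, n = 4), with all MR values above Sham. The gene stood at 0.53 on the log2 scale (SE 0.09, adjusted p = 0.0293), and of the 8 fits that left out a library it passed in 2, those without Sham replicate 1 and without Sham replicate 3 (highest adjusted p 0.123). With libraries scaled to the constitutive endothelial genes it was 0.40 and did not pass (adjusted p = 0.0805). DESeq2 called Unc5b alone among arterial genes, and limma-voom also Efnb2, an ephrin of arteries (0.25, adjusted p = 0.126 in edgeR). No gene passed among 11 of capillary, 8 of venous, 8 of endocardial and 8 of lymphatic endothelium, with medians of −0.09, 0.05, 0.01 and −0.03 and with 5, 2, 1 and 3 genes at an unadjusted p under 0.05. DESeq2 called 1, 1, 0 and 1 of them and limma-voom 0, 2, 0 and 1, beside 3.76% and 2.75% of all genes. Of the venous genes Lrg1 had the lowest p and was called by both other tools, at −0.37 (adjusted p = 0.0995 in edgeR) and at −0.47 without Sham replicate 3 (adjusted p = 0.00666). Aplnr stood at 24.5 ± 14.9 CPM in Sham against 51.4 ± 9.30 CPM in MR, a log2 fold change of 1.07 (adjusted p = 0.312), and without Sham replicate 3 it was 1.57 and passed (adjusted p = 0.0105). Ackr1, the defining marker of the venules where Sele and Selp are usually found, was too low to be tested, at 0.199 ± 0.0478 CPM in Sham against 0.195 ± 0.0782 CPM in MR (SD, n = 4).

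**Figure D4:**
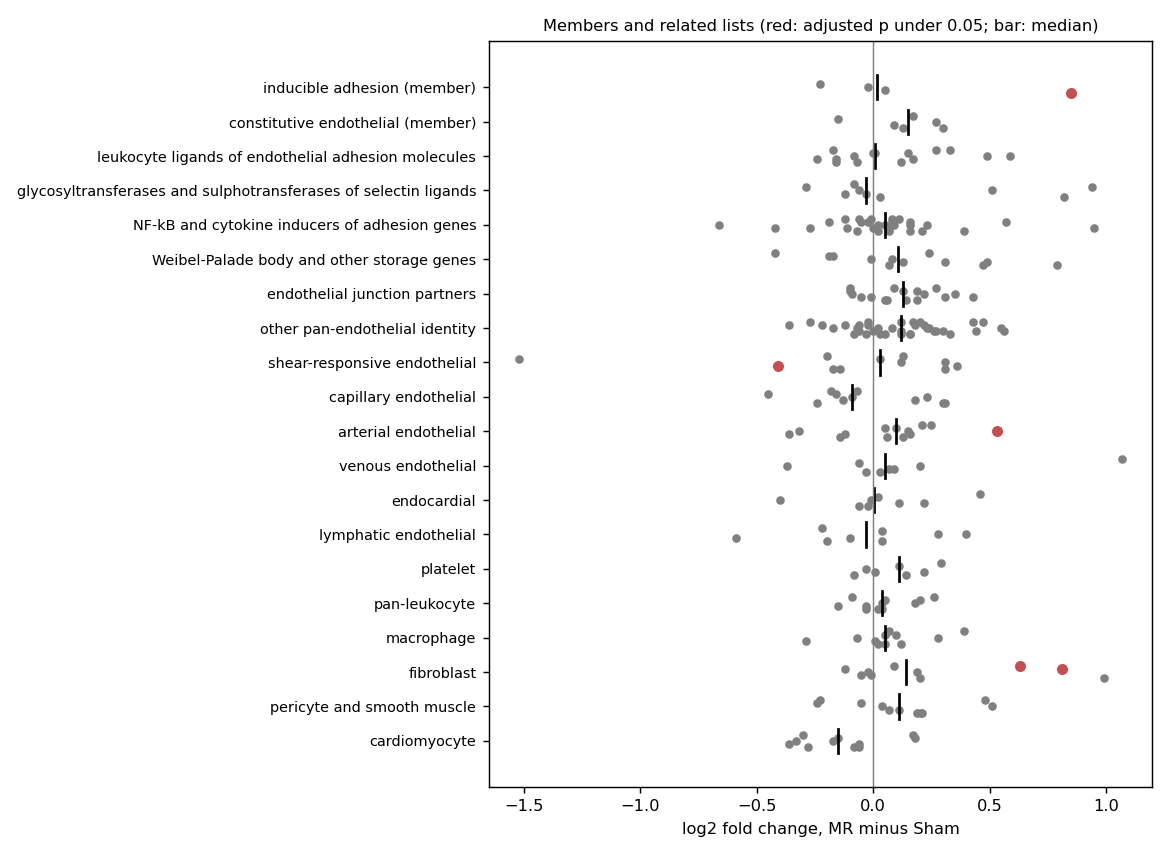
Fold change of MR over Sham on the log2 scale (horizontal axis) of every tested gene in the 2 member groups and 18 related lists; red points passed an adjusted p of 0.05 in edgeR, grey points did not, and black bars are list medians. Sele (0.85) stands apart from the other inducible members, and the medians of the lists plotted lie between −0.15 and 0.15.

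Several members are also made by cells other than endothelium, and markers of these cells were read beside them. None of the listed markers found in the table was at 0 in all 8 libraries. Platelets carry Selp, Pecam1 and Vwf products. The 11 platelet genes found summed to 18.8 to 23.7 CPM in Sham and 21.0 to 23.2 CPM in MR, 0 of 7 tested passed, and Pf4 and Ppbp were at −0.08 and 0.22 (adjusted p 0.746 and 0.697). Pan-leukocyte genes summed to 116 to 128 and 120 to 135 CPM with 0 of 11 called, and Ptprc, which encodes CD45, was at 16.3 ± 0.666 and 16.0 ± 0.755 CPM (SD, n = 4). Macrophage genes summed to 391 to 431 and 427 to 467 CPM with 0 of 11 called. Pericyte and smooth muscle genes, from cells that can carry Vcam1, summed to 1380 to 1650 and 1560 to 1700 CPM with 0 of 11 called, and Pdgfrb was at 0.21 (adjusted p = 0.314). Genes of fibroblasts, which can also express Vcam1 and Icam1, summed to 1870 to 1930 and 1990 to 2180 CPM, with Col1a1 and Col1a2 called higher among 10. Their log2 fold changes were 0.81 and 0.63 (adjusted p 0.0483 and 0.0159), and of the 8 fits that left out a library Col1a1 passed in 1 and Col1a2 in 4, both of them without Sham replicate 3 (0.99 and 0.72). Cardiomyocyte genes had a median of −0.15 and 0 of 11 called. In the order given, these lists held 1, 1, 3, 4, 5 and 5 genes at an unadjusted p under 0.05, where 15.1% of all genes tested did. DESeq2 called 0, 0, 2, 2, 3 and 3 of the list genes and limma-voom 0, 0, 2, 1, 3 and 0. Over all genes tested, edgeR called 0.458%, DESeq2 3.76% and limma-voom 2.75%.

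Neutrophil genes, left out of the plot of lists for their range, varied widely between libraries. The Sham replicates in order held sums of 41.7, 13.6, 9.30 and 77.9 CPM, and the MR replicates 5.32, 6.56, 5.18 and 3.67 CPM. All 8 tested had negative log2 fold changes and 0 passed, with 7 at an unadjusted p under 0.05 (15.1% of all genes tested were). DESeq2 called 6 of these 8 and Camp, which edgeR did not test, and limma-voom called 1 (3.76% and 2.75% over all genes). Whether these cells had a part in the adhesion gene values was not tested.

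**Figure D5:**
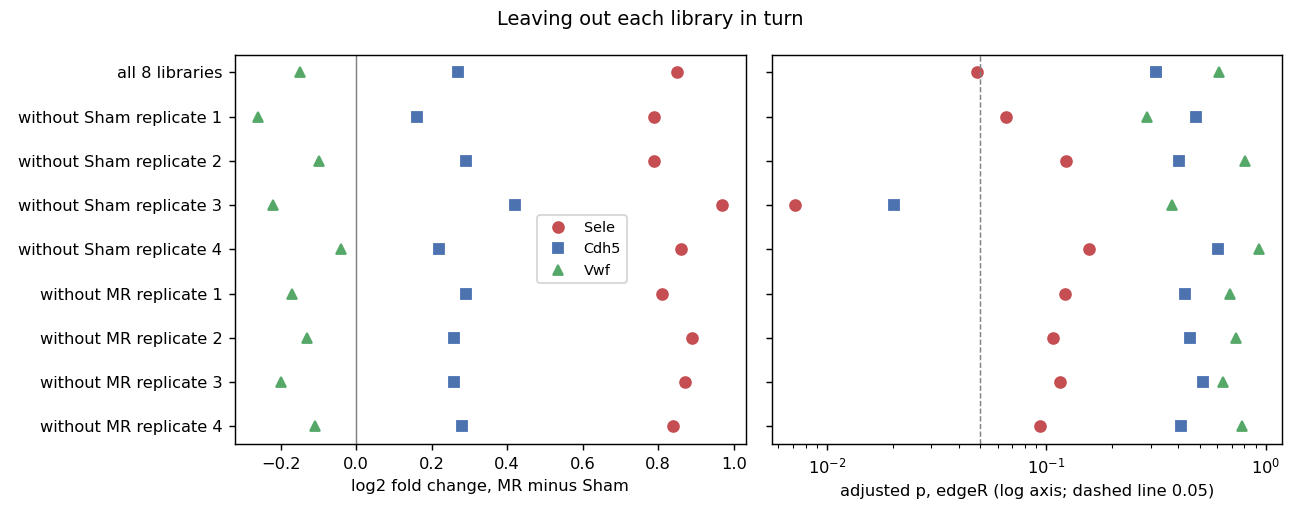
Log2 fold change (left) and edgeR adjusted p (right, log axis, dashed line at 0.05) of Sele, Cdh5 and Vwf with all 8 libraries and with each library left out. Sele stays between 0.79 and 0.97 and passes with all libraries and without Sham replicate 3, the setting in which Cdh5 also passes.

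By separation of ranges and by unadjusted p, the members differed in shares near those of the whole table. By edgeR call the share was higher, 1 of 10 against 0.458%. The members were chosen with the rise of Sele known, so none of these shares is a test of them. The MR and Sham ranges were apart in 1 of 10 members, where 8.09% of all genes tested were. Of the members, 2 of 10 (Sele and Cdh5) had an unadjusted p under 0.05, where 15.1% of all genes did. The 95% intervals of fold change ran from 0.956 to 1.19 for Pecam1, the most precise, and from 0.609 to 1.76 for Selp, the least. These intervals, from 4 libraries a group, are ranges around each estimate and not limits of what the test could detect.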

How the data were processed

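The authors deposited raw counts for each Ensembl gene, as whole numbers. The submitters' processing notes name HISAT2 2.0.5 and mm10 but no roles for them. The counter, its annotation and strand are not given in the sources that were at hand. Genes holding 2 reads were 2.27 to 2.82 times as many as genes holding 1, so both ends of a fragment may be counted. Replicates differed by more than sampling noise in all pairs (chi-square per degree of freedom 12 to 42.6). The labels do not say that libraries are separate animals, so p-values measure the spread between libraries, which may be technical. The numbers in the titles do not mix between groups, so a batch that follows them cannot be told apart from MR.

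Symbols, coordinates and exon lengths came from GENCODE M21 (GRCm38, the assembly of mm10). Of the identifiers 32350 matched and 755 did not. Promoter sequences came from RefSeq (GRCm38.p6) and covered 5 of 10 members. Genes were filtered (filterByExpr, minimum count 10, total 15), scaled by TMM and tested by robust quasi-likelihood F tests in edgeR 4.0.16 (R 4.3.3), Benjamini-Hochberg over all 16603 genes, threshold 0.05. Standard errors are the log2 fold change over the square root of F, and intervals use the moderated degrees of freedom. Log2 CPM used a prior count of 2. DESeq2 1.42.0 and limma 3.58.1 (voom) were alternatives. The fit was tested on simulated data. Members and lists were chosen with earlier results of these data known, including the rise of Sele. Genes named are the members, list genes with the lowest p, fixed markers, and the 5 profiles nearest to Sele and to Pecam1; Heg1, Efnb2 and Camp were named after their values were seen, for their calls in other tools.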

Additional observations from a re-analysis of the deposited data

How the results depend on the processing

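The number of changed genes over the whole table was 76, and 167 with scaling to the constitutive genes, 311 with a length trend removed, 936 without a filter, 618 in DESeq2, 457 in limma-voom and 3 to 887 with a library left out (887 without Sham replicate 3, 3 without Sham replicate 2). Among the 10 members the count of 1 became 0 with scaling to the constitutive genes and when genes needed 1 CPM in 4 libraries (Sele adjusted p 0.0645 and 0.0512), 2 without a filter (Sele and Cdh5), and 0 to 2 with a library left out. Without Sham replicates 1 and 3 together, added after seeing the data, it was 3 (Sele, Cdh5 and Vwf) and the whole count 1007. Sele was above 0 in all 18 alternatives and past the threshold in 9, with adjusted p-values of 0.0025 to 0.156. The inducible minus constitutive difference of 0.03 was −0.19 without Sele and −0.08 to 0.12 with a library left out. Of 48 named genes that did not pass, 16 passed without Sham replicate 3, where 5.28% of all genes were called. Many of these genes were named for a low p, so the count cannot be read against that share. Of the 6 named genes that passed (Sele, Naip6, Unc5b, Klf4, Col1a1 and Col1a2), 0 passed in all 8 fits with a library left out. Naip6 was named only for a profile like that of Sele, so its pass is no separate result. No paired analysis was possible because the groups share no replicate number in the labels. Depth limits Selp, with 9 to 31 counts a library.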
